A study of Mus musculus with 4 samples.

Results

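Hyaluronan is a long sugar polymer of the pericellular matrix, and the 9 genes described here cover its synthesis (*Has1*, *Has2* and *Has3*), its main cell surface receptor (*Cd44*), its degradation (*Hyal1* and *Hyal2*) and the proteins that hold it in the matrix (*Tnfaip6*, *Hapln1* and *Vcan*). They were taken by gene symbol from a table of 45802 symbols. All 9 had a value in each of the 4 libraries, as did 14415 genes in all. The libraries were made from total RNA of PDGFRα reporter+ and PDGFRα reporter- mouse periosteal cells, with 2 libraries of each population. Both populations came from male PDGFRα-mTmG mice, in which tamoxifen turns cells with *Pdgfra* promoter-driven CreER activity from membrane tdTomato to membrane GFP. Tamoxifen was given at 2 months of age at 150 mg/kg per day for 5 d, and the hindlimb periosteum was digested 14 d after the last dose, from mice described as 9 to 10 weeks old. The cells were expanded for 1 passage with 10 ng/mL bFGF and sorted as negative for CD31, CD45 and Ter119, as GFP+ (reporter+) or tdTomato+ (reporter-). Each population was pooled from 3 to 6 mice per the labels, and from a larger number per the methods. Reporter- cells are cells without recombination, not cells without *Pdgfra* RNA. The log2 value of *Pdgfra* was 7.78 and 7.62 in the reporter+ libraries and 7.87 and 7.44 in the reporter- libraries. These values do not measure the receptor protein. By flow cytometry, the authors found that reporter activity matched PDGFRα protein generally well but not exactly.

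Hyaluronan is made at the plasma membrane by the hyaluronan synthases, which join UDP-glucuronic acid and UDP-N-acetylglucosamine and push the growing chain out of the cell. Outside the cell the chain is bound by receptors, by proteoglycans such as versican that are fixed to it by link proteins, and by inter-alpha-trypsin inhibitor heavy chains that TSG-6 transfers onto it. Hyaluronidases cut it, and lysosomal enzymes complete its breakdown. Hyaluronan-rich matrix is known from the soft early callus and from connective tissue that is being remodeled.

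The measure throughout is a log2 expression value per gene symbol, quantile normalized by the authors, so that each library had a lower quartile of −1.47, a median of 1.48 and an upper quartile of 3.00. The unit under the logarithm is not stated, so that the value of a gene, or the linear sum over a marker list, is compared between libraries and not with that of another gene, and sequencing depth and counting error are unknown. The table heads the libraries of each population with the numbers 2 and 3. The sample labels number them 1 and 2, so that a library is named by its population and its heading number. The correlation over genes, which are no replicates, was 0.985 and 0.982 between a reporter+ and a reporter- library of equal number, compared with 0.952 and 0.957 within a population. Nothing in the labels says that the 2 libraries of a population came from separate cultures, so that their spread may be technical. Of the markers of periosteal stromal cells, all 10 had a value in each library. Under both heading numbers these markers were higher in reporter+ cells for 4 and lower for 5, compared with 22.1% and 24.8% of all genes. Their differences between populations (reporter+ minus reporter-) ran from −1.14 for *Postn* to 1.83 for *Lum*, with 1.39 for *Dcn*, 1.06 for *Fap*, −0.12 for *Col1a1* and −0.17 for *Prrx1*. Their part in the values of the hyaluronan genes was not tested.

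None of the 9 hyaluronan genes passed the test between PDGFRα reporter+ and PDGFRα reporter- cells, and *Has3* alone had populations that did not overlap. The log2 fold change (mean of the reporter+ libraries minus mean of the reporter- libraries) lay between −0.28 for *Has1* and 0.54 for *Has3*, with a median of 0.018 compared with −0.0035 over all genes tested. With limma, 0 of the 9 had an adjusted p under 0.05, as had 0.0% of all 14415 genes, and 0 of the 9 had an unadjusted p under 0.05, compared with 0.909% of all genes. The adjusted p was 1 for each of the 9 genes (limma, Benjamini-Hochberg over all genes), and their unadjusted p ran from 0.267 for *Has2* to 0.976 for *Hapln1*. Within the libraries of the same heading number, 3 of the 9 genes (*Has2*, *Has3* and *Tnfaip6*) were higher in reporter+ cells under both numbers, compared with 22.1% of all genes, and 0 were lower under both, compared with 24.8%. The other 6 differed in sign between the numbers. The populations did not overlap for 1 gene, *Has3*, which was higher in reporter+ cells, as were 7.59% of all genes, and 0 of the 9 lay lower without overlap, compared with 8.1% of all genes. With 9 genes, these counts are not read as a departure from the background shares. When 1 library was left out, the sign of the log2 fold change turned for 7 of the 9 genes, all but *Has2* and *Has3*. In bulk libraries, a different number of cells of a type and a different amount of RNA per cell cannot be told apart.

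**Figure D1:**
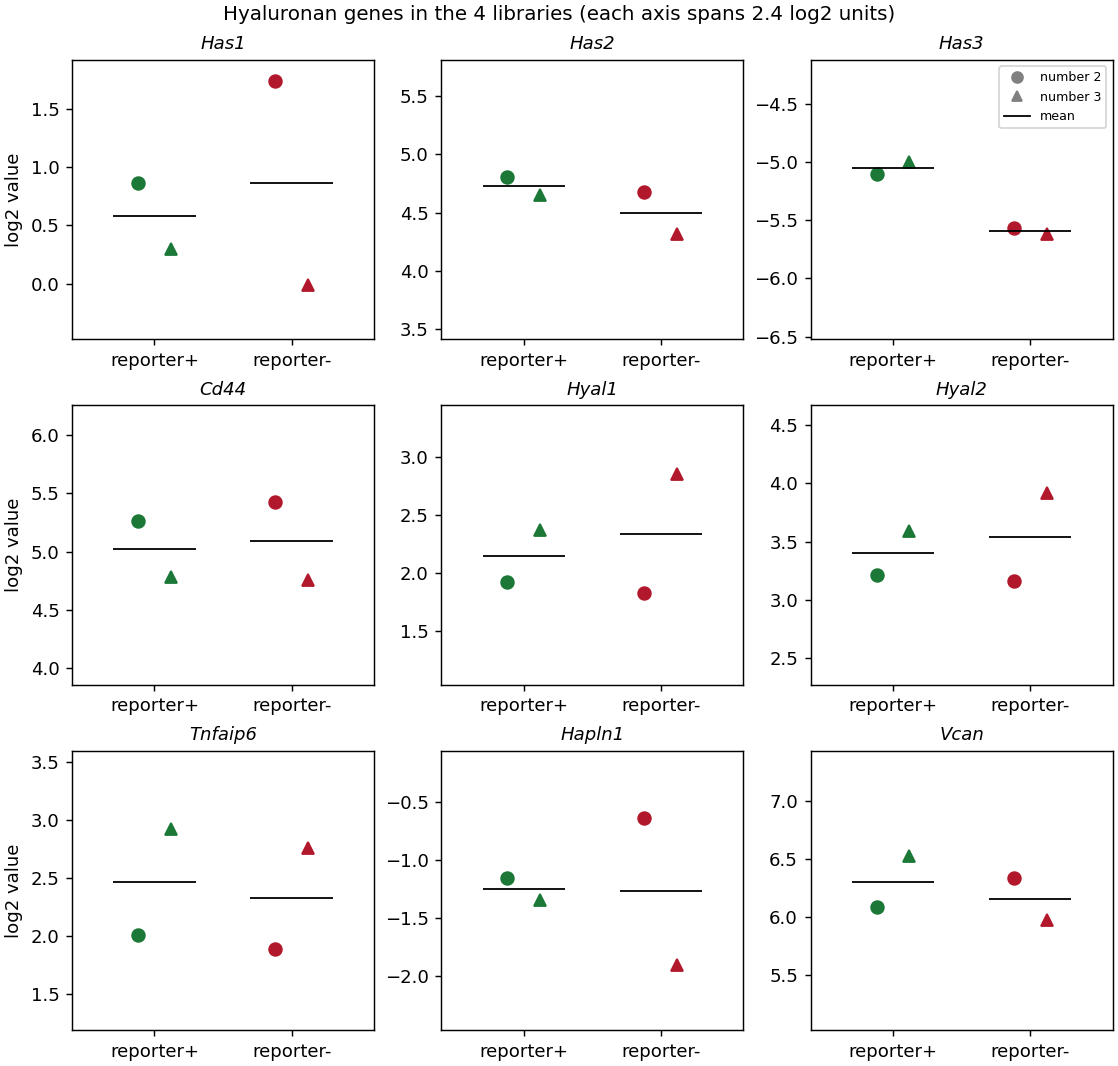
Log2 values (y axis, a separate range of equal length for each gene) of the 9 hyaluronan genes in the 2 PDGFRα reporter+ (green) and the 2 PDGFRα reporter- (red) libraries; circles are libraries numbered 2, triangles libraries numbered 3, and lines the mean of a population. Only for *Has3* do both reporter+ libraries lie above both reporter- libraries.

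*Has2*, the main synthase of mesenchymal cells, had log2 values of 4.81 and 4.65 in reporter+ libraries 2 and 3 and of 4.68 and 4.31 in reporter- libraries 2 and 3. Reporter+ library 3 lay just under reporter- library 2, so that the populations overlapped. Its means were 4.73 ± 0.11 (SD, n = 2) and 4.49 ± 0.26 (SD, n = 2), a log2 fold change of 0.24 (SE 0.19, 95% interval −0.26 to 0.73). It was higher in reporter+ cells under both numbers, by 0.13 and 0.34, and kept that sign whichever library was left out, at 0.053 to 0.42. The gene (chromosome 15, 56665627 to 56694539, minus strand, GENCODE M21 on GRCm38) is overlapped by the antisense gene *Has2os*, which was listed without a value in any library.

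*Has3*, another synthase, had log2 values of −5.10 and −5.00 in the reporter+ libraries and of −5.56 and −5.62 in the reporter- libraries. Both reporter+ libraries lay above both reporter- libraries, by 0.46 and 0.62 within the numbers. The log2 fold change was 0.54 (SE 0.63, 95% interval −1.15 to 2.22), a 1.45-fold difference of means. Within a population, library 3 differed from library 2 by 0.10 and by −0.055, less than for any other of the 9 genes. At this level differences of this size were common. Among the 387 genes with a mean log2 value between −6 and −5, log2 fold changes had an SD of 0.95. With the variance moderated without a trend on the level, the unadjusted p of *Has3* was 0.0462 and its adjusted p 1 (limma). *Has3* (chromosome 8, 106870242 to 106884566, plus strand) overlaps *Chtf8* on the opposite strand, whose values ran from 4.12 to 4.33. The libraries were stranded, but whether the counting used the strand is not stated.

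*Has1*, the synthase that cytokines induce in fibroblasts and synovial cells, spread most among the 9 genes. Its log2 values were 0.86 and 0.30 in reporter+ libraries 2 and 3 and 1.74 and −0.016 in reporter- libraries 2 and 3. The highest and the lowest value were both from reporter- cells, so that the reporter+ libraries lay inside their range. Its log2 fold change was −0.28 (SE 0.66, 95% interval −2.04 to 1.48), made up of −0.88 under number 2 and 0.31 under number 3. *Has1* lies on chromosome 17 (17843323 to 17855205, minus strand).

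*Cd44*, the receptor through which stromal cells hold and take up hyaluronan, had log2 values of 5.26 and 4.78 in reporter+ libraries 2 and 3 and of 5.43 and 4.76 in reporter- libraries 2 and 3. The libraries numbered 2 were the higher ones in both populations, which overlapped throughout. The difference between populations was −0.17 under number 2 and 0.018 under number 3, and the log2 fold change was −0.074 with a 95% interval from −0.89 to 0.74. The table gives 1 value per symbol, so that the spliced forms of *Cd44* (chromosome 2, 102811141 to 102901665, minus strand) were not resolved.

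*Hyal1*, a lysosomal hyaluronidase, had log2 values of 1.92 and 2.37 in reporter+ libraries 2 and 3 and of 1.83 and 2.85 in reporter- libraries 2 and 3. *Hyal2*, a hyaluronidase anchored at the cell surface that cuts long chains into fragments, had 3.21 and 3.59 in the reporter+ and 3.16 and 3.92 in the reporter- libraries. For both genes the library with the highest and the library with the lowest value were reporter-. Both were slightly higher in reporter+ cells under number 2, *Hyal1* by 0.09 and *Hyal2* by 0.054, and lower under number 3, by −0.48 and −0.32. The log2 fold changes were −0.20 (SE 0.41, 95% interval −1.28 to 0.88) for *Hyal1* and −0.13 (SE 0.31, 95% interval −0.97 to 0.70) for *Hyal2*. The genes are neighbors on the plus strand of chromosome 9, *Hyal2* from 107567945 to 107572779 and *Hyal1* from 107576927 to 107581710, with 4147 bases between them. *Hyal1* shares bases on the same strand with *Naa80*, listed under its older symbol *Nat6*, and with *Hyal3*. *Nat6* had values from 2.92 to 3.20 and *Hyal3* from −2.63 to −2.14, so that the value of *Hyal1* is uncertain where reads could be split among them.

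*Tnfaip6* encodes TSG-6, which binds hyaluronan and moves heavy chains of the inter-alpha-trypsin inhibitor onto it. Its log2 values were 2.01 and 2.92 in reporter+ libraries 2 and 3 and 1.89 and 2.76 in reporter- libraries 2 and 3. The libraries numbered 3 were the higher ones in both populations, and under each number the reporter+ library was slightly above the reporter- library, by 0.12 and 0.16. The log2 fold change was 0.14 (SE 0.45, 95% interval −1.06 to 1.34), smaller than the SD within populations of 0.64 and 0.62. With 1 library left out it ran from −0.32 (without reporter+ library 3) to 0.59 (without reporter+ library 2). *Tnfaip6* lies on chromosome 2 (52038009 to 52056686, plus strand).

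*Vcan*, the gene of versican, had log2 values of 6.08 and 6.52 in reporter+ libraries 2 and 3 and of 6.33 and 5.98 in reporter- libraries 2 and 3. Reporter+ library 3 was the highest and reporter- library 3 the lowest. The difference between populations was thus −0.25 under number 2 and 0.55 under number 3, with a log2 fold change of 0.15 (SE 0.24, 95% interval −0.49 to 0.79). *Hapln1*, the link protein that fixes such proteoglycans to hyaluronan, had −1.16 and −1.35 in the reporter+ libraries and −0.64 and −1.90 in the reporter- libraries. As for *Has1*, the reporter+ libraries lay inside the range of the reporter- libraries. Its difference between populations was −0.52 under number 2 and 0.56 under number 3, and its log2 fold change was 0.018 (SE 0.56, 95% interval −1.48 to 1.52). With a pseudocount of 1 the log2 fold change of *Hapln1* was −0.023. *Hapln1* (89539796 to 89611652, plus strand) and *Vcan* (89655312 to 89742509, minus strand) lie side by side on chromosome 13 with 43659 bases between them. The spliced forms of *Vcan*, which carry different numbers of glycosaminoglycan chains, were not resolved.

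**Figure D2:**
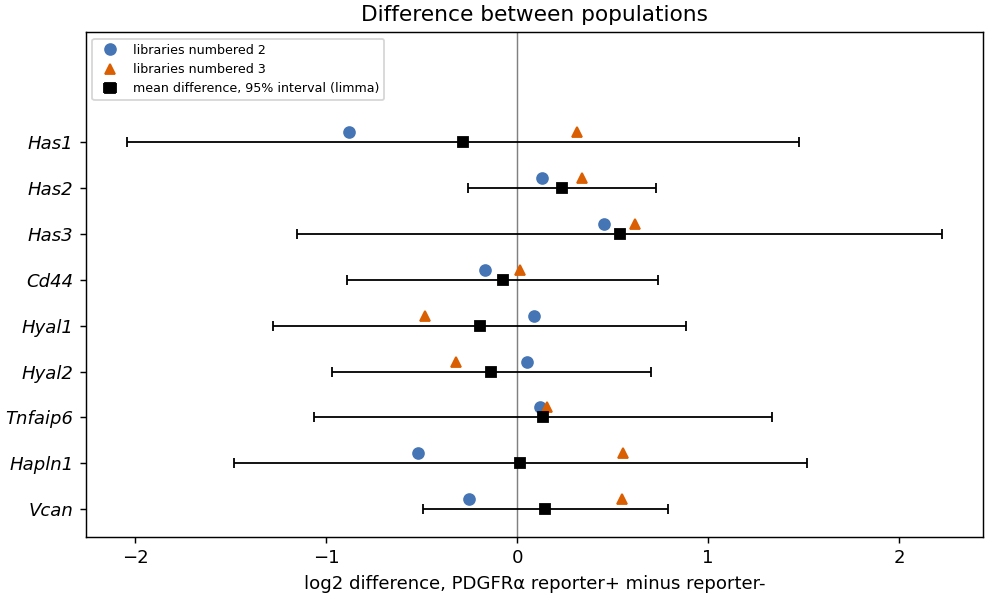
Difference in log2 value between PDGFRα reporter+ and PDGFRα reporter- cells (x axis) for each of the 9 genes (y axis); squares with bars are the mean difference with its 95% interval from limma, circles the difference between libraries numbered 2 and triangles that between libraries numbered 3. Every interval includes 0, and the signs under both numbers are the same for *Has2*, *Has3* and *Tnfaip6*.

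Libraries were also compared between heading numbers. The mean difference between libraries 3 and 2 was larger in size than the difference between populations for 7 of the 9, compared with 75.7% of all genes, a share close to the background. *Has3* differed by 0.024 between numbers and 0.54 between populations, and *Vcan* by 0.041 and 0.15. The difference between numbers had the same sign in both populations for 7 of the 9, and *Has3* and *Vcan* were again the exceptions. *Hyal1*, *Hyal2* and *Tnfaip6* were higher in library 3 of both populations (3 of the 9, compared with 41.1% of all genes). *Has1*, *Has2*, *Cd44* and *Hapln1* were lower in library 3 of both populations (4 of the 9, compared with 32.7% of all genes). What the numbers stand for is not given in the sources used here, so that these differences are a description with no test.

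*Tnfaip6* was higher in library 3 by 0.91 in reporter+ and by 0.87 in reporter- cells, a 1.88-fold and a 1.83-fold difference. *Has1* was higher in library 2 by 1.48-fold in reporter+ and by 3.38-fold in reporter- cells. *Hapln1* had differences between libraries 3 and 2 of −0.19 in reporter+ and −1.27 in reporter- cells. *Hyal1* was higher in library 3 by 1.36-fold in reporter+ and 2.02-fold in reporter- cells, and *Hyal2* by 1.30-fold and 1.69-fold. The difference between numbers was larger in reporter- than in reporter+ cells for 6 of the 9 genes, compared with 48.6% of all genes, and with 9 genes this is not read as a departure from the background. Of the chondrocyte markers, *Acan*, whose product aggrecan is held on hyaluronan by link protein, had −1.09 and −4.91 in the reporter+ and −1.62 and −4.89 in the reporter- libraries, and *Col2a1* had 2.86 and −1.33, and 3.32 and 1.23. Both were thus higher in the libraries numbered 2, as was *Hapln1*. Of the 5 chondrocyte markers, 3 were lower and 0 higher in library 3 of both populations, compared with 32.7% and 41.1% of all genes. *Matn1* had no value. The summed linear level of this list was 284 and 253 in the reporter+ and 148 and 190 in the reporter- libraries, with the same order of libraries as *Comp* (8.09 and 7.97, and 7.06 and 7.53). Their part in the values of *Hapln1* was not tested.

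**Figure D3:**
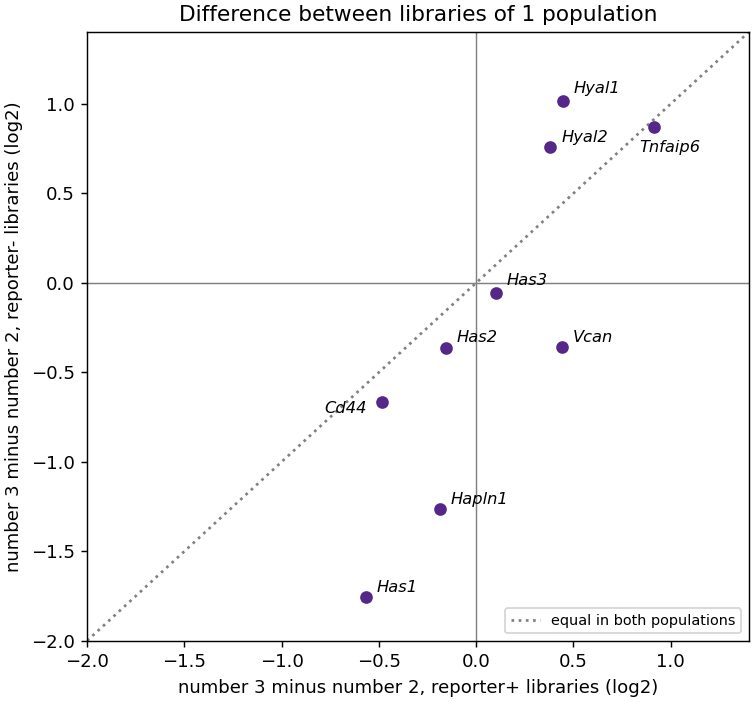
Difference in log2 value between libraries numbered 3 and 2 in PDGFRα reporter+ cells (x axis) and in PDGFRα reporter- cells (y axis), with 1 point per gene and a dotted line where both are equal. *Tnfaip6*, *Hyal1* and *Hyal2* lie at upper right, *Has1*, *Hapln1*, *Cd44* and *Has2* at lower left, and *Has3* and *Vcan* have opposite signs.

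Promoter sequences were available for 7 of the 9 genes in the RefSeq table (GRCm38.p6), not for *Has2* and *Has3*. *Has1* and *Tnfaip6* are shown because they had the largest mean differences between numbers, in opposite directions, and *Hyal1* because it moved with its neighbor *Hyal2*. Each run is 5′ to 3′ on the strand of the gene, starts 250 bases before the RefSeq start of transcription and stops before the first GENCODE M21 exon. Letters in capitals match 1 of 5 motifs searched on both strands: TGAGTCA for the AP-1 site, TGACGTCA for the cyclic AMP response element, CCAAT for the box of that name, GGGCGG for the GC box and TATAAA for the TATA box.
*Has1* (chr17:17855206-17855438, minus strand): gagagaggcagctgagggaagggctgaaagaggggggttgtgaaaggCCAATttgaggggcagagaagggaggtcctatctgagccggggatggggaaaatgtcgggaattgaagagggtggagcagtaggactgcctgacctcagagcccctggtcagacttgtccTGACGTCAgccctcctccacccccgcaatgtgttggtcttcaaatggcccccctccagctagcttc
*Tnfaip6* (chr2:52037863-52038008, plus strand): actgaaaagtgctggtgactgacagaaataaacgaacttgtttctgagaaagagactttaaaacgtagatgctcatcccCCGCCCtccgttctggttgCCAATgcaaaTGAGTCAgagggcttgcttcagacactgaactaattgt
*Hyal1* (chr9:107576700-107576926, plus strand): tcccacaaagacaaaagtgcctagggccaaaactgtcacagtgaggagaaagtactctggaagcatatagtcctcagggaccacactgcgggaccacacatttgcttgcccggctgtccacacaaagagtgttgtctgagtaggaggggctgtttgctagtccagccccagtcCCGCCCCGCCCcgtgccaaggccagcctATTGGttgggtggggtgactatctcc

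In *Has1* the run held TGACGTCA from 83 to 76 bases before the start, a motif found in the 250 bases before the start of 1.55% of the 32851 promoters in the table, and CCAAT from 203 to 199. In *Tnfaip6* it held TGAGTCA from 142 to 136 bases before the start, found in 4.46% of all promoters, and next to it CCAAT from 152 to 148, found in 33.8%. This run also held the GC box, read on the other strand, from 171 to 166. The run of *Hyal1* held 2 copies of the GC box that share a base, read on the other strand, and CCAAT on the other strand. The GC box was found in 32.7% of all promoters. TATAAA, found in 12.4%, was in none of these 3 runs. A match of letters is a description and no measure of binding.

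The other genes of hyaluronan metabolism, 39 by a list, likewise held none that passed the test. Of these, 30 had a value in all 4 libraries, 4 in some and 5 in none (*Hyal4*, *Hyal5*, *Hyal6*, *Spam1* and *Habp2*). With limma, 0 of the 30 had an adjusted p under 0.05 and 0 an unadjusted p under 0.05, compared with 0.0% and 0.909% of all genes. The median log2 fold change was 0.08. Under both heading numbers 9 were higher and 2 lower in reporter+ cells, compared with 22.1% and 24.8% of all genes. With 30 genes, these counts are not read as a departure from the background shares.

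The group listed as matrix cross-linking held 4 genes with a value in each library (*Itih2*, *Itih4*, *Itih5* and *Ptx3*). All 4 were higher in reporter+ cells under both numbers, compared with 22.1% of all genes. Their median log2 fold change was 0.38, and none passed the test. With 4 genes, this count is not read as a departure from the background share. With 1 library left out, the log2 fold change ran from 0.18 to 0.91 for *Itih2*, from 0.014 to 0.76 for *Ptx3*, from 0.042 to 0.31 for *Itih4* and from −0.21 to 0.95 for *Itih5*. For *Itih2* and *Ptx3* the lowest value was that without reporter+ library 3. *Itih2*, a heavy chain that TSG-6 can place on hyaluronan, had log2 values of 5.04 and 5.76 in reporter+ libraries 2 and 3 and of 4.57 and 5.14 in reporter- libraries 2 and 3. Reporter- library 3 was above reporter+ library 2, so that the populations overlapped, and the log2 fold change was 0.54 (SE 0.34, 95% interval −0.35 to 1.44). *Ptx3*, the pentraxin that joins such heavy chains in the cumulus matrix, had 5.16 and 5.91 in the reporter+ and 4.89 and 5.41 in the reporter- libraries, higher by 0.27 and 0.50 within the numbers (log2 fold change 0.39, SE 0.33). *Itih5* had 0.65 and 1.36 against 0.05 and 1.22 (log2 fold change 0.37), and *Itih4* −3.32 and −3.21 against −3.57 and −3.31 (0.18). All 4 were also higher in library 3 of both populations, as were *Tnfaip6* and 41.1% of all genes. *Itih1* was blank in reporter- library 3, *Itih3* in reporter- library 2 and *Ambp* in all but reporter+ library 3. *Itih1* was lower in reporter+ cells under number 2 (−7.13 against −4.70), and *Itih3* higher under number 3 (−1.50 against −2.69).

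Of the 10 genes that supply the sugar nucleotides, none passed the test, and *Gfpt2* and *Pgm3* were higher and *Ugdh* and *Hk1* lower in reporter+ cells under both numbers. *Gfpt2*, which feeds the hexosamine pathway, had 4.24 and 4.52 in the reporter+ and 4.06 and 4.11 in the reporter- libraries, without overlap, and a log2 fold change of 0.29 (SE 0.16, 95% interval −0.14 to 0.72). *Ugdh*, which makes UDP-glucuronic acid, had 5.38 and 5.08 against 5.61 and 5.12 (−0.13). *Pgm3* did not overlap either but differed by 0.046. Of the 30 genes, 2 were thus higher without overlap, compared with 7.59% of all genes, which is not read as a departure from the background. The log2 fold changes of *Ugp2* (0.21), *Uap1* (0.07), *Gfpt1* (−0.09), *Gnpnat1* (0.14), *Gpi1* (0.08), *Hk1* (−0.07) and *Hk2* (0.25) had 95% intervals that include 0, the widest that of *Hk2* (−1.38 to 1.88), which differed by −0.32 under number 2 and 0.82 under number 3.

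None of the 5 further turnover genes with values kept its sign under both numbers. *Cemip*, needed for the breakdown of hyaluronan by fibroblasts, had 4.14 and 4.73 in reporter+ libraries 2 and 3 and 5.32 and 4.37 in reporter- libraries 2 and 3. It was lower in reporter+ cells by −1.18 under number 2 and higher by 0.35 under number 3 (log2 fold change −0.41, SE 0.39). *Hmmr*, a hyaluronan-binding protein that is also a gene of dividing cells, had the same order of libraries as *Cemip*, with −0.69 and 0.08 against 0.53 and −0.33 (−0.40). The log2 fold changes were 0.039 for *Tmem2* (now *Cemip2*), 0.20 for *Hyal3*, 0.08 for *Hexa* and −0.047 for *Gusb*.

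*Stab1*, a scavenger receptor of macrophages and sinusoidal endothelium and a relative of the clearance receptor of hyaluronan, had 1.55 and 1.75 in the reporter+ and 0.54 and 1.63 in the reporter- libraries. It was higher in reporter+ cells by 1.00 and 0.13 within the numbers (log2 fold change 0.57, SE 0.42). The log2 fold change was 0.025 without reporter- library 2 and 1.11 without reporter- library 3. Macrophage markers moved with it. Of the 10 in the list, 8 were higher in reporter+ cells under both numbers and 0 lower, and their summed linear level was 239 and 280 in the reporter+ and 94.9 and 178 in the reporter- libraries. No marker of the list was blank in all libraries. Reporter- library 2 was the lowest and reporter+ library 3 the highest in this sum, as for *Stab1*. The sum follows *Lyz2* (7.65 and 7.88, and 6.27 and 7.25), whereas *Cd68*, *C1qa* and *C1qb* were highest in reporter+ library 2. The part of macrophage RNA in the values of *Stab1* and of the cross-linking genes was not tested. *Stab2* and *Lyve1*, hyaluronan receptors of sinusoidal and lymphatic endothelium, had values of at most −3.10, with log2 fold changes of 0.33 and −0.51. *Layn*, a membrane lectin that binds hyaluronan, had −0.10. Of 8 endothelial markers, 0 were higher and 6 lower in reporter+ cells under both numbers, compared with 22.1% and 24.8% of all genes. Their summed linear level was 2.68 and 3.43 in the reporter+ and 3.32 and 6.60 in the reporter- libraries. This sum rests largely on *Egfl7* and, in the libraries numbered 3, on *Tek*. *Egfl7* differed in sign between the numbers, with a log2 fold change of −0.042. Those of *Cdh5*, *Emcn* and *Pecam1*, at low values, were −4.3, −3.4 and −3.2. Smooth muscle or pericyte markers were lower in reporter+ cells under both numbers for 5 of 6 genes, compared with 24.8% of all genes. Their sums were 6.21 and 25.4 against 22.1 and 38.1. Of 4 erythroid markers, *Hbb-bs* and *Alas2* were blank in all libraries, and the sum was at most 0.0386.

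Among proteoglycans and link proteins other than the 9 genes, *Hapln3* (0.21), *Hapln4* (0.18), *Hapln2* (−0.50), *Acan* (0.26) and *Bcan* (−0.050) had log2 fold changes that differed in sign between the numbers. *Ncan* had a value in 1 library. Except for *Hapln2*, they were lower in library 3 of both populations, as were *Hapln1* and 32.7% of all genes. *Habp4*, an intracellular protein named for hyaluronan binding, had a log2 fold change of 0.013.

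**Figure D4:**
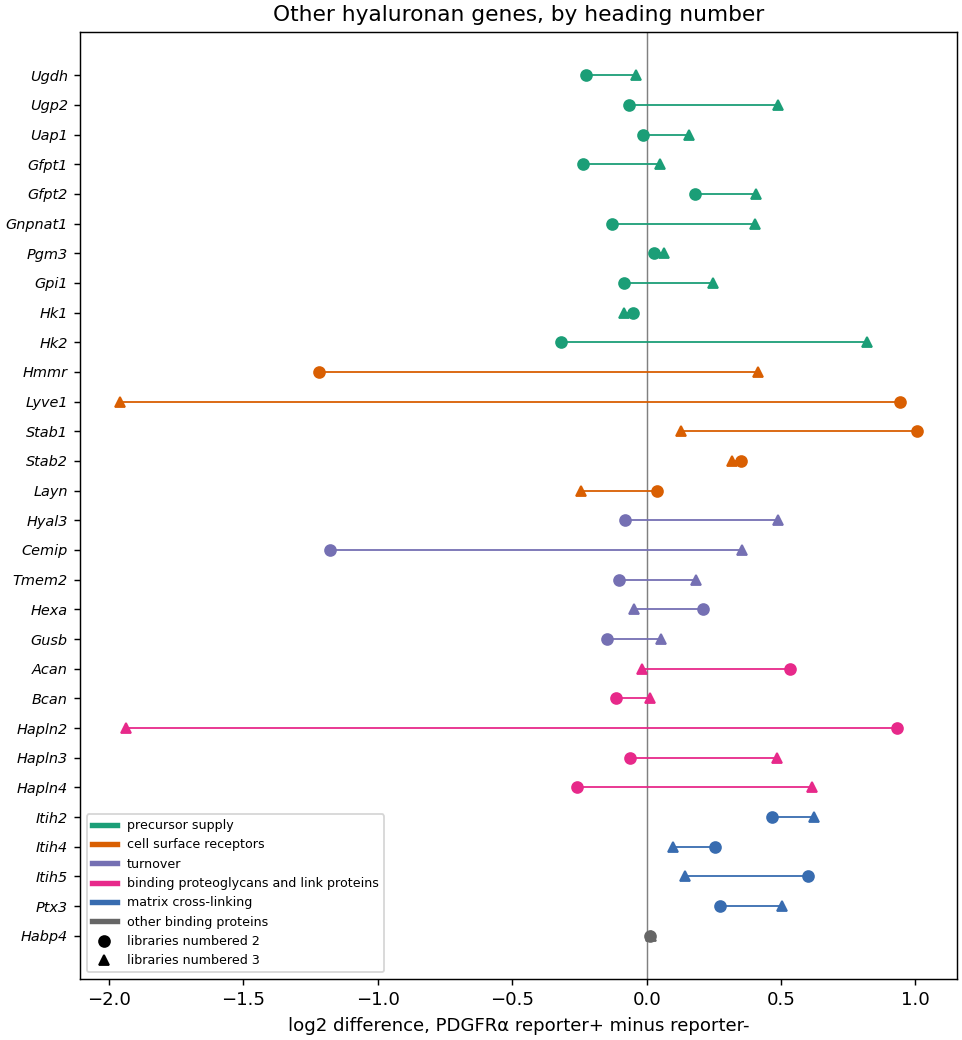
Difference in log2 value between PDGFRα reporter+ and PDGFRα reporter- cells (x axis) for the 30 other genes of hyaluronan metabolism with a value in all libraries (y axis), colored by role; circles are libraries numbered 2, triangles libraries numbered 3, and a line joins both. The 4 genes listed as cross-linking, *Itih2*, *Itih4*, *Itih5* and *Ptx3*, lie to the right of 0 under both numbers, as did 22.1% of all genes. No turnover gene has 1 sign under both.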

How the data were processed

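The authors deposited quantile-normalized log2 values of 2 PDGFRα reporter+ and 2 PDGFRα reporter- libraries, leaving genes without signal blank. The submitters' processing notes name bcl2fastq 2.17.1.14, Partek 7.0 and GRCm38.p6. The aligner, the counting and the unit under the logarithm are not given in the sources used here, so that depth is unknown. Columns were assigned to a population only. The members and gene lists were chosen with earlier results of these data known, and the rule named every member and every other listed hyaluronan gene with a value in all libraries. One gene fixed with that list is not reported here or counted in it, and listed genes with blanks are named in addition. Populations were compared by the moderated test of limma 3.58.1 (R 4.3.3; eBayes with a trend, two-sided, no block) over all 14415 genes with 4 values, with Benjamini-Hochberg adjustment and a threshold of 0.05. The model was tested on simulated data. An exact permutation test of 1 gene cannot go below a two-sided p of 0.333 here and was not used. Linear sums of marker lists used 2 to the power of each value, with blanks as 0. Positions are from GENCODE M21 (GRCm38). Summaries used Python 3.11.15, pandas 2.3.3 and matplotlib 3.10.9. Alternatives were a replicate block, a pseudocount of 1, median centering, a minimum mean log2 value of 0, moderation without a trend, blanks set to the lowest value (−10.07), and leaving out each library in turn.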

Additional observations from a re-analysis of the deposited data

How the results depend on the processing

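Under the 6 alternatives that keep all libraries, each gene where it was tested, 0 of the 9 hyaluronan genes and 0 of the 30 others reached an adjusted p under 0.05 (limma), and the sign of the log2 fold change turned for *Hapln1* alone, at −0.023 with a pseudocount of 1. With the heading number as a replicate block, the adjusted p was under 0.05 for 29 of all genes, and for 0 without it. The labels do not say that the number pairs libraries, although deviations from the population mean of a reporter+ and a reporter- library of equal number correlated at 0.681 over genes. In that fit (limma) the smallest adjusted p was 0.911 among the 9 genes (*Has2*) and 0.163 among the 30 (*Itih2*). The unadjusted p was under 0.05 for 4 of the 30 (*Itih2*, *Ptx3*, *Stab1* and *Gfpt2*), compared with 913 of all 14415 genes. With 30 genes, this count is not read as a departure from the background, nor are the counts given below with 1 library left out. Without a trend in the moderation, 1 of the 9 (*Has3*) had an unadjusted p under 0.05 (limma), compared with 273 of all 14415 genes. With 1 library left out, which assumes that the lone library varies like those of the other population and unbalances the numbers, that count was 0 to 2 among the 30. It was 1 without reporter+ library 2 (*Hk2*) and 2 without reporter- library 3 (*Cemip* and *Stab1*). The sign then turned for 7 of the 9 genes, with log2 fold changes of *Has1* −1.16 to 0.60, *Cd44* −0.41 to 0.26, *Hyal1* −0.70 to 0.31, *Hyal2* −0.51 to 0.24, *Tnfaip6* −0.32 to 0.59, *Hapln1* −0.61 to 0.65 and *Vcan* −0.073 to 0.37, and for 22 of the 30 others, with *Ugdh* −0.37 to 0.11, *Uap1* −0.11 to 0.26, *Gfpt1* −0.22 to 0.033, *Gnpnat1* −0.24 to 0.51, *Gpi1* −0.051 to 0.21, *Hk1* −0.42 to 0.28, *Hk2* −0.59 to 1.09, *Hmmr* −0.83 to 0.029, *Lyve1* −1.53 to 0.52, *Stab2* −0.69 to 1.36, *Layn* −0.41 to 0.20, *Cemip* −0.89 to 0.062, *Tmem2* −0.064 to 0.14, *Hexa* −0.025 to 0.19, *Gusb* −0.11 to 0.011, *Acan* −1.65 to 2.16, *Bcan* −0.43 to 0.33, *Hapln2* −1.51 to 0.51, *Hapln3* −0.28 to 0.70, *Hapln4* −0.69 to 1.04, *Itih5* −0.21 to 0.95 and *Habp4* −0.18 to 0.20. The others kept their sign, with *Has2* 0.053 to 0.42, *Has3* 0.49 to 0.59, *Gfpt2* 0.15 to 0.43, *Pgm3* 0.026 to 0.066, *Ugp2* 0.0040 to 0.42, *Hyal3* 0.060 to 0.35, *Itih2* 0.18 to 0.91, *Itih4* 0.042 to 0.31, *Ptx3* 0.014 to 0.76 and *Stab1* 0.025 to 1.11. The cause was not tested. The counts under both numbers were recomputed with a pseudocount and with centering, for the 9 genes and for cross-linking genes higher in reporter+ cells. This was chosen after seeing the data, and these counts were the same. Depth could not be weighed, as no counts are given.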
